A study of Mus musculus with 4 samples.

Results

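A set of 4827 distal, CpG-poor windows of the mouse genome had little DNA methylation in germline stem cells cultured for about 5 months. Their levels were compared with those in cells cultured for about 60 months. Each window is a non-overlapping tile of 1 kb on chromosomes 1 to 19. A tile was taken when 4 to 9 of its CpGs had at least 5 methylation calls in both cultures and it had at least 60 calls in each. It also had to lie more than 5 kb from every annotated gene and to have a level of 30% or less in the 5-month cells. Its level is the share of methylated calls, in percent, over these CpGs. The 4827 tiles were among 378473 tiles with the same CpG number, depth and distance from genes at any level, and among 1689849 tiles with at least 4 CpGs on chromosomes 1 to 19 and X. The tiles were selected on their 5-month level, so their low 5-month values are not a result.

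Germline stem (GS) cells are spermatogonial stem cells kept in culture. The cells called 60M-GS were cultured for about 60 months and the cells called 5M-GS for about 5 months. Both were wild-type testis cells from Green mice, which carry the act-EGFP transgene of C57BL/6 Tg14(act-EGFP)OsbY01, on a DBA/2 background. Both grew in medium that held 1% fetal bovine serum, human FGF2 at 10 ng/ml and rat GDNF at 15 ng/ml. Whole-genome bisulfite sequencing was done on 2 replicates per culture age. Each deposited table pools its 2 replicates, and nothing in the labels says whether these came from separate cultures. Differences between the tables therefore have no replicate check, and every interval here is a 95% interval that covers counting error only. The 60M-GS cells are not shown here to descend from the 5M-GS cells, so culture time cannot be told apart from other differences between the cultures. Words such as kept, started, still low and filled in compare the 2 tables and do not follow the same cells. In 60M-GS, 19341319 CpGs carried 471693518 calls in all, a median of 22 each. In 5M-GS, 19371838 CpGs carried 468121185 calls, a median of 21 each.

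As a check of the germ cell label, promoter windows of germ cell genes were low in both cultures. The level at Dazl was 3.4% in 60M-GS, against 3.05% in 5M-GS, and that at Ddx4 was 0.859% in 60M-GS cells and 3.01% in 5M-GS cells. Both genes encode RNA-binding proteins of germ cells. Windows of Mael, Sycp3 and Gfra1 were at 0% to 2.35% in 60M-GS, against 0.488% to 5.05% in 5M-GS. Zbtb16 and Ret had no window that could be measured here. No other cell type was compared, and most promoter windows of the genes nearest to the tiles were low as well, so this check is limited.

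Most of the mouse genome is CpG-poor and highly methylated. Short CpG-poor stretches with little methylation, far from promoters, are often places where transcription factors keep DNA open, and many are active enhancers. Such sites depend on the cell type and can regain methylation when the factors leave, whereas CpG-dense promoters are usually kept free of methylation in a different way. Methylation alone cannot tell an enhancer from another protein-bound site, and no chromatin or expression data were used here, so the tiles are named by their rule.

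Most of the tiles kept a low level in the long-term culture, while about 1 tile in 10 was methylated to the level of its surroundings. In 60M-GS, 3139 tiles (65.0%) were still at 30% or less, 1192 (24.7%) lay between the limits, and 496 (10.3%) were at 70% or more. These 3 classes are called still low, middle and filled in. Over all 4827 tiles the median level was 21.9% in 60M-GS cells and 19.9% in 5M-GS cells. The level was higher in 60M-GS in 2826 tiles (58.5%). The 60M-GS levels did not form a separate high peak. They thinned out to 216 tiles at 50% to 60% and then stayed nearly even, with 223, 217 and 209 tiles in the next steps of 10 points and 70 tiles at 90% or more.

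**Figure D1:**
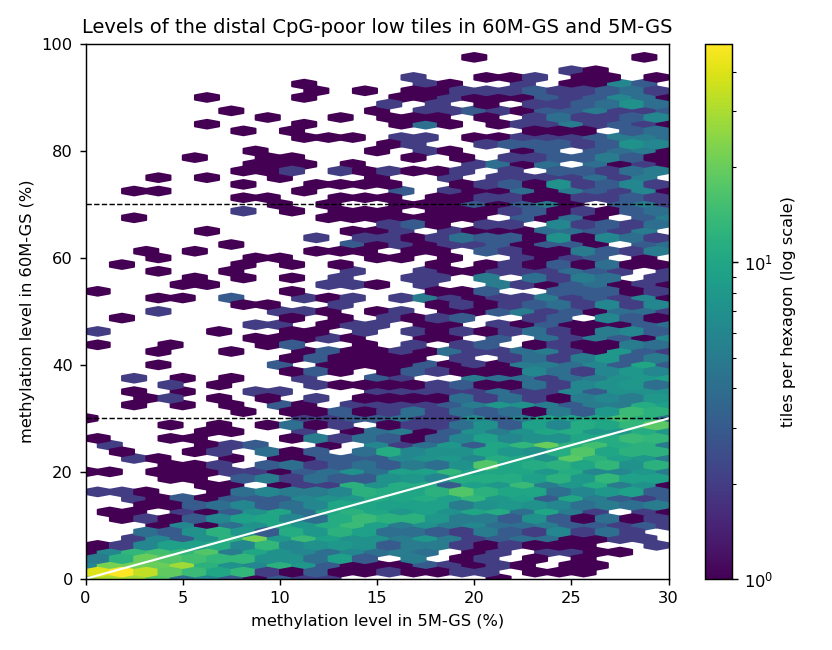
Methylation level (%) of the 4827 tiles in 60M-GS (vertical axis) against 5M-GS (horizontal axis, cut at 30% by the rule); colour gives tiles per hexagon on a log scale, dashed lines mark 30% and 70%, and the white line marks equal levels. Most tiles lie around the white line, and 496 lie above the upper dashed line.

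The classes overlapped in their starting level, which the rule had used, and tiles nearer to its limit of 30% pass it more easily. Of the 1035 tiles under 10% in 5M-GS, 949 (91.7%) were still low in 60M-GS and 18 (1.74%) had filled in. Of the 2377 tiles at 20% to 30% in 5M-GS, 1163 (48.9%) were still low and 379 (15.9%) had filled in. A core of 778 tiles was at 10% or less in both cultures.

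Because the rule fixed the low side in 5M-GS, the mirrored rule was applied to 60M-GS with every other criterion kept. It took 4238 tiles at 30% or less in 60M-GS, of which 12 (0.283%) were at 70% or more in 5M-GS. The step to a high level was thus seen far more often toward 60M-GS, with 496 of 4827 tiles against 12 of 4238 in the mirrored set. The 60M-GS share of tiles at 70% or more among all 378473 distal CpG-poor tiles was 90.4%, and the 5M-GS share was 86.9%.

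Tiles were also compared one by one with a two-sided Fisher's exact test on their methylated and unmethylated calls, adjusted by Benjamini-Hochberg over all 1689849 tiles. A call needed both an adjusted p below 0.05 and levels that differed by 20 percentage points or more. By this rule 1151 of the 4827 tiles (23.8%) were called higher in 60M-GS, against 3.48% of all tiles and 3.88% of the distal CpG-poor tiles. There were 18 tiles (0.373%) called lower in 60M-GS, against 0.475% of all tiles and 0.314% of the distal CpG-poor tiles. Since a low 5M-GS level leaves little room for a loss and chose the tiles, nothing is read from these shares. All 496 filled tiles, 644 middle tiles and 11 still-low tiles made up the calls toward higher levels. Calls on 1 read are not independent, so the test was repeated with the calls of each tile divided by its number of CpGs. That left 262 of the 4827 tiles (5.43%) called higher, against 0.498% of all tiles, and 0 called lower, against 0.0155% of all tiles. Among the 262 were 236 filled and 26 middle tiles.

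Filling in reached most CpGs of a tile. In the filled tiles 81.8% of the 3184 single CpGs were at 70% or more in 60M-GS, against 3.96% in 5M-GS. Every CpG was at 50% or more in 338 of the 496 filled tiles. In the still-low tiles, 67.2% of 20417 CpGs were at 10% or less in 60M-GS, against 62.4% in 5M-GS. The classes rest on the levels of the same CpGs, so these shares describe the tiles and test nothing.

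The largest difference was at a tile on chromosome 5 (chr5:53390001-53391000, mm10) in intergenic sequence, 111461 bp from Smim20, a gene for a small mitochondrial protein. Its level was 89.6% (84.9% to 92.9%, 230 calls) in 60M-GS, against 6.72% (4.18% to 10.6%, 238 calls) in 5M-GS, a difference of 82.8 points (76.8 to 87.0). Its 7 CpGs, at bases 31 to 229 of the tile, had levels of 66.7%, 80.6%, 95.1%, 90.6%, 97.5%, 89.7% and 88.6% in 60M-GS. The same CpGs had 0%, 6.9%, 12.1%, 7.69%, 6.0%, 6.98% and 3.45% in 5M-GS, on 15 to 50 calls each. Every CpG of this tile was therefore high in 60M-GS and low in 5M-GS, with no overlap between the cultures. The CpGs 5 to 50 kb away averaged 81.6% in 60M-GS cells and 81.7% in 5M-GS cells, so the surroundings of this tile were alike in both.

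A tile on chromosome 12 (chr12:95339001-95340000), 352006 bp from Flrt2, a gene for a cell adhesion protein, was at 92.4% (88.4% to 95.1%) in 60M-GS, against 10.9% (7.84% to 15.0%) in 5M-GS. In 60M-GS its 9 CpGs were at 83.3% to 100%. In 5M-GS the first 8 were at 0% to 9.76%, and the ninth, 633 bases into the tile, was at 61.8%. The low stretch of the 5M-GS cells thus ended inside this tile. The tile nearest to Mdfic (chr6:15824001-15825000), a gene for a protein that binds transcription factors, lay 21832 bp from it and was at 88.2% in 60M-GS cells and 7.69% in 5M-GS cells. The tile 70384 bp from Arrdc3 (chr13:80812001-80813000), a gene for an arrestin-like protein, was at 90.8% in 60M-GS, against 11.4% in 5M-GS.

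The other 8 of the 12 filled tiles with the largest differences were of the same kind. They were at 84.1% to 97.1% in 60M-GS cells and 6.78% to 20.3% in 5M-GS cells. A pair of adjoining tiles on chromosome 16 (chr16:89355001-89357000) lay about 46 kb from Krtap21-1, a gene for a keratin-associated protein of hair, and was at 91.3% and 89.8% in 60M-GS, against 14.2% and 11.7% in 5M-GS. A tile on chromosome 9 (chr9:59376001-59377000) lay 11554 bp from Arih1, a gene for a ubiquitin ligase, and was at 93.8% in 60M-GS cells and 17.2% in 5M-GS cells. A tile on chromosome 3 (chr3:20931001-20932000), 563824 bp from the angiotensin receptor gene Agtr1b, was at 97.1% in 60M-GS, against 20.3% in 5M-GS. All 12 passed the test on divided calls. The 12 were taken for the largest differences, so passing was largely set by that choice and nothing is read from it. All 12 lay in surroundings that averaged over 60% in both cultures.

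At the other end stood tiles with hardly a methylated call in either culture. A tile on chromosome 17 (chr17:46290001-46291000), 6256 bp from Dlk2, a gene for a Notch-related membrane protein, had 0 methylated calls among 365 in 60M-GS cells and 0 among 310 in 5M-GS cells. These zeros allow levels of up to 0.822% in 60M-GS cells and 0.968% in 5M-GS cells. The 1 kb on either side of it was at 67.7% in 60M-GS, against 72.6% in 5M-GS, so the tile is a sharp gap in methylated sequence. The 8 still-low tiles with the lowest upper bounds all had 0 methylated calls in 60M-GS, on 232 to 365 calls, and 0% to 3.62% in 5M-GS. They lay 5069 to 19934 bp from the nearest annotated gene, which for 2 of them was a long noncoding RNA gene. Beside Dlk2, the nearest protein-coding genes within this range were Hmgn1, which encodes a nucleosome-binding protein, Akap1, which encodes an anchor of protein kinase A, and Cd2ap, Slc7a4 and Ccdc192. For the tiles beside the noncoding genes they were Smad6, which encodes an inhibitor of BMP signalling, at 24076 bp and Pwwp2b at 34745 bp.

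**Figure D2:**
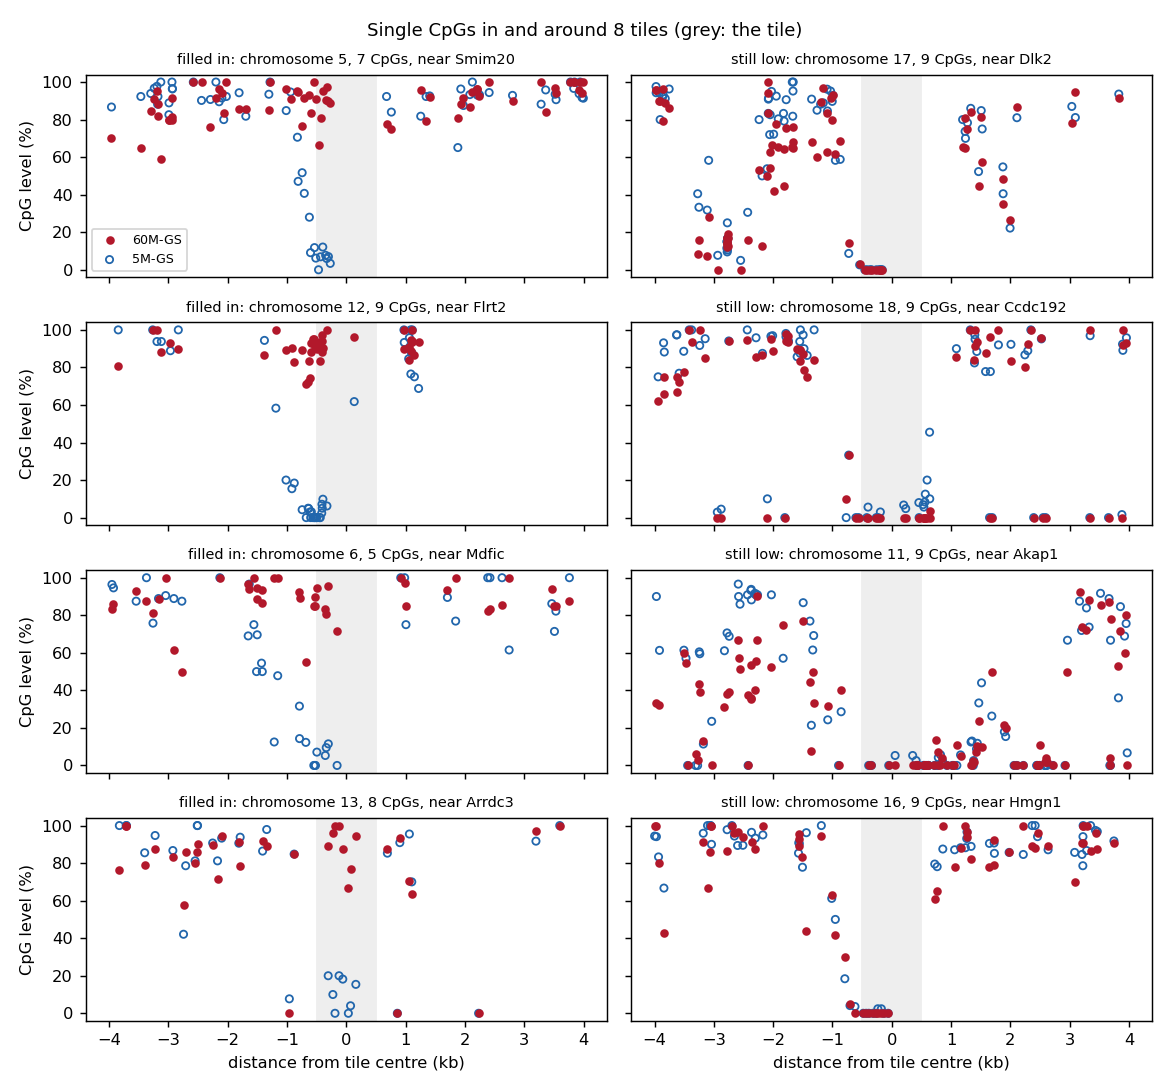
Level (%) of each CpG with at least 5 calls in both tables, against distance from the tile centre (kb), for the 4 filled tiles with the largest differences (left) and 4 still-low tiles (right); filled red points are 60M-GS, open blue points 5M-GS, and grey marks the tile. In the filled tiles the red points join the high flanks while the blue points dip toward 0; in the still-low tiles both stay at or near 0.

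The 5 tiles with the largest losses among the 18 called lower were at 1.23% to 6.08% in 60M-GS cells and 24.3% to 29.7% in 5M-GS cells. One of them (chr12:12921001-12922000) lay 14093 bp from Mycn, which encodes a MYC family transcription factor, and was at 2.81% in 60M-GS, against 26.2% in 5M-GS. CpGs within 1 kb on either side of this tile averaged 15.3% in 60M-GS, against 35.4% in 5M-GS. A tile adjoining the one near Mycn was at 1.16% in 60M-GS cells and 1.01% in 5M-GS cells.

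The flanks followed the tiles. Around filled tiles, CpGs 500 to 1500 bp from the tile centre averaged 80.8% in 60M-GS, against 46.7% in 5M-GS, so the dip of the 5M-GS cells was gone over its whole width. From 1500 to 5000 bp the averages were 82.1% in 60M-GS cells and 71.4% in 5M-GS cells. Around still-low tiles the average 500 to 1500 bp from the centre was 49.2% in 60M-GS, against 50.8% in 5M-GS, and it was 75% in 60M-GS cells and 75.2% in 5M-GS cells farther out. The middle tiles kept a shallower dip, at 48.0% inside the tile in 60M-GS against 25% in 5M-GS.

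**Figure D3:**
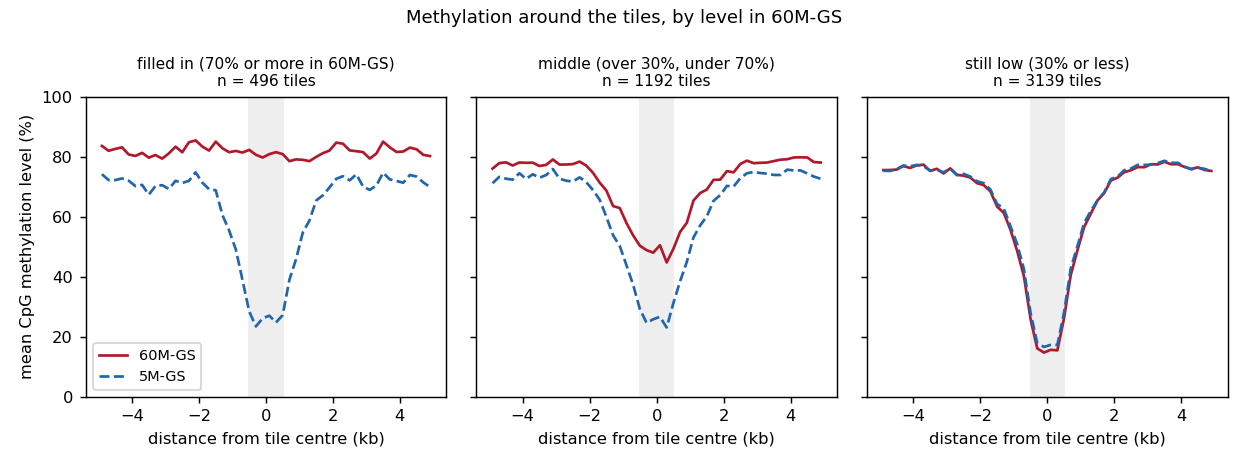
Mean CpG methylation level (%) in steps of 200 bp against distance from the tile centre (kb), for the filled (n = 496), middle (n = 1192) and still-low (n = 3139) tiles; solid red is 60M-GS, dashed blue 5M-GS, and grey marks the tile. The 60M-GS line is flat at about 80% across the filled tiles and lies on the 5M-GS line around the still-low tiles.

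The length of the low stretch gives the same picture at single-CpG resolution. It was measured as the longest run of neighbouring CpGs under 50% that touches the tile. In filled tiles 338 of 496 had no CpG under 50% in 60M-GS, and the median run was 0 bp in 60M-GS, against 759.5 bp in 5M-GS. In still-low tiles the median run was 816 bp in 60M-GS cells and 773 bp in 5M-GS cells. The run was longer in 60M-GS in 970 still-low tiles, shorter in 625 and equal in 1544. The still-low class is bounded at 30% in both cultures, but the bound does not cut both sides alike. The class holds 3139 of the 4827 members, and these are also 3139 of the 4238 tiles of the mirrored rule. More tiles were thus left out for a 60M-GS level over 30% than for a 5M-GS level over 30%. The median level of the class was 14.1% in 60M-GS, against 16.3% in 5M-GS, and 1138 of its 3139 tiles (36.3%) had the higher level in 60M-GS. The part of this uneven cut in the levels and run counts of the class was not tested. Nothing is therefore read from their direction.

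Tiles next to a member that were not members themselves were called by the same test. Of 526 tiles adjoining filled tiles, 59.9% were called higher in 60M-GS and 0 were called lower. Of 4446 tiles adjoining still-low tiles, 2.59% were called higher and 3.98% lower, against 3.48% and 0.475% of all tiles. At 10 to 20 kb the share called higher was still 21.8% around filled tiles and was 3.06% around still-low tiles. Among adjoining tiles that started at 40% to 80% in 5M-GS, 64.2% of 243 beside filled tiles and 2.9% of 1658 beside still-low tiles were called higher, against 11.6% of all tiles in that range. In the same range 7.18% of those beside still-low tiles were called lower, against 1.73% of all tiles. These neighbours lie close to tiles whose levels defined the classes, so the shares are a description and not a test.

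**Figure D4:**
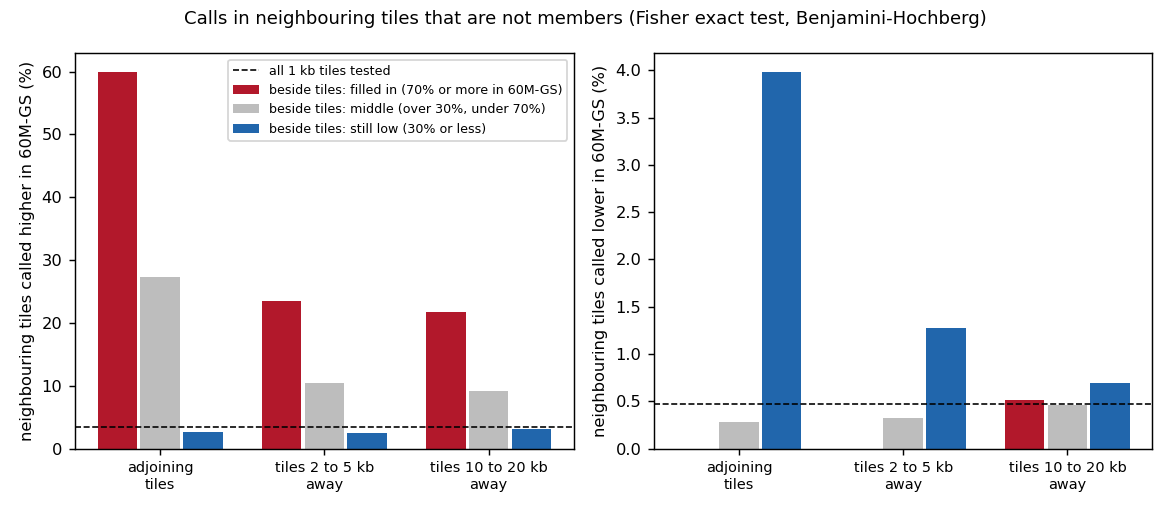
Percent of neighbouring non-member tiles called higher (left) and lower (right) in 60M-GS by Fisher's exact test with Benjamini-Hochberg adjustment, by distance and by class of the member; the dashed lines are the shares over all tiles tested. Bars beside filled tiles exceed the dashed line at all 3 distances on the left, and bars beside still-low tiles exceed it on the right.

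The classes differed in where they lie. Filled tiles sat in sequence with few CpGs and far from genes. The median number of measured CpGs 5 to 50 kb away was 330.5 for filled, 418 for middle and 682 for still-low tiles. Where there were under 300 such CpGs, 22.2% of 767 tiles had filled in and 39.0% were still low. Where there were 600 or more, 2.62% of 2254 tiles had filled in and 80.8% were still low. The median distance to the nearest annotated gene was 43973 bp for filled and 19557 bp for still-low tiles. Of tiles more than 100 kb from a gene 22.8% had filled in, against 6.13% of those at 5 to 10 kb. Starting levels differed between these groups as well. The median 5M-GS level was 22.6% with under 300 such CpGs, against 17.5% with 600 or more. By distance it was 21.9% over 100 kb from a gene, against 18.3% at 5 to 10 kb. The part of the starting level in these shares was not tested.

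**Figure D5:**
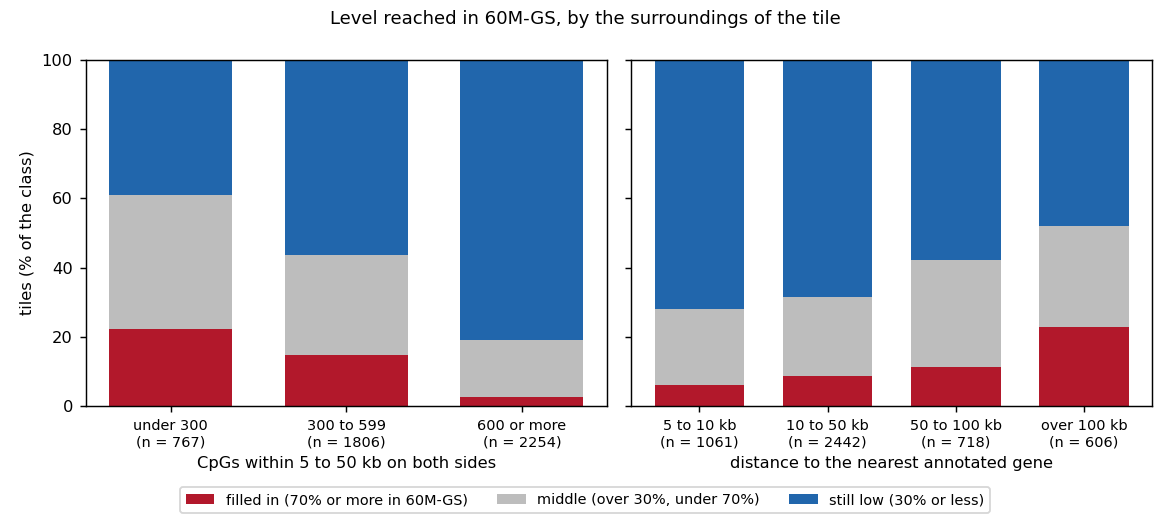
Share of tiles (%) in each 60M-GS class by the number of measured CpGs within 5 to 50 kb on both sides (left) and by distance to the nearest annotated gene (right); red is filled in, grey middle, blue still low, and n is the number of tiles. The red share is largest where CpGs are sparse and genes are far.

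Part of the filled tiles lay in large stretches that were themselves less methylated in the 5M-GS cells. Where the CpGs 5 to 50 kb away averaged under 60% in 5M-GS, 151 of 821 tiles (18.4%) had filled in. For these 151 tiles the surroundings had a median of 78.5% in 60M-GS cells and 52.7% in 5M-GS cells. Where the surroundings were at 60% or more, 343 of 3948 tiles (8.69%) had filled in, and these had surroundings of 84.6% in 60M-GS, against 75.5% in 5M-GS. The median of the surroundings was thus higher in 60M-GS on both sides of the limit. Filled tiles with surroundings under 60% also lay in a dip of the 5M-GS cells. There CpGs averaged 26.2% in the tile, against 55.3% at 1500 to 5000 bp from its centre. The limit of 60% was chosen after values had been seen. Whether a gain over a whole stretch and a gain over a narrow dip are separate kinds of filling was not tested. The number of CpGs in the tile made little difference, with 8.18% to 11.5% filled in at 4 to 9 CpGs. Depth moved with the class as well: 13.0% of tiles under 15 calls per CpG in 5M-GS and 7.24% of those with 30 or more had filled in, and its part in the result was not tested.

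The 496 filled tiles were spread over all 19 autosomes, but unevenly. The share was 19.3% on chromosome 3, 17.4% on chromosome 17, 15.0% on chromosome 6 and 14.1% on chromosome 1, and 2.0% on chromosome 11. On chromosome 17 it rested on the stretch from 38 to 40 Mb, without which 15 of 216 tiles (6.94%) had filled in. Of 1789 windows of 1 Mb with a member, 14 held at least 5 filled tiles, and these 14 held 121 of them. Most members stood alone, since 90.5% had no adjoining member, and no run of members was longer than 3 tiles. The longest runs of still-low tiles were 3 tiles each, among them 1 that lay 9585 bp from Tfeb, a regulator of lysosomal genes (chr17:47802001-47805000), at 10.4% in 60M-GS cells and 15.8% in 5M-GS cells. A run of filled tiles 23879 bp from Pparg, a nuclear receptor of fat cells (chr6:115336001-115338000), was at 77.5% in 60M-GS, against 22.5% in 5M-GS.

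The densest group of filled tiles lay on chromosome 17 between 38 and 40 Mb. It held 77 members, of which 36 had filled in, 41 were in the middle class and 0 were still low. Their levels ran from 32.5% to 92.5% in 60M-GS, with a median of 66.7%, and from 10.0% to 29.9% in 5M-GS, with a median of 23.8%. The 5M-GS levels are capped by the rule and the stretch was picked for its filled tiles, so nothing is read from the gap between these ranges. For 74 of the 77 tiles the nearest protein-coding gene was 1 of 8 genes of the Esp family, which encode secreted peptides of exocrine glands that mice sense through the vomeronasal organ. Esp31 had 23 of these tiles, 11 of them filled in, and Esp18 had 13, 7 of them filled in. The tile nearest to Esp31, at 5348 bp (chr17:38651001-38652000), was at 92.3% in 60M-GS cells and 27.9% in 5M-GS cells. The depth of the 2 tables was alike here, with a median ratio of 1.0 after scaling to the total calls.

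Other groups of filled tiles lay in gene deserts, so that the nearest gene was often far. Pcdh10, which encodes a protocadherin of nerve cells, was the nearest protein-coding gene of 20 tiles on chromosome 3, of which 14 had filled in, 6 were in the middle class and 0 were still low. The 14 were at 74.7% to 93.1% in 60M-GS, against 16.9% to 29.4% in 5M-GS, and lay 527398 to 1765398 bp from the gene. Brinp3, named for induction by BMP and retinoic acid in nerve cells, had 11 filled, 6 middle and 5 still-low tiles. Hnf4g, a nuclear receptor gene, had 9 filled and 16 middle tiles, and Tyrp1, which acts in melanin synthesis, had 9 filled and 3 middle tiles. Epha6, an ephrin receptor gene, had 7 filled tiles and Aga, which encodes a lysosomal enzyme, had 6. For 30.4% of filled tiles the nearest protein-coding gene was more than 500 kb away, against 6.5% of still-low tiles and 14.3% of all distal CpG-poor tiles. A nearest gene at such distances is a position and says nothing of control.

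Still-low tiles lay closer to protein-coding genes, with 51.1% within 50 kb, against 28.2% of filled tiles and 33.1% of all distal CpG-poor tiles. The 3139 still-low tiles had 2076 nearest protein-coding genes and the 496 filled tiles had 320, and 151 genes had both.

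The gene with the most still-low tiles was Tbx3, a T-box transcription factor that acts in limb development and in pluripotent cells. All 11 of its tiles were still low, and they lay 78534 to 358534 bp from it. Their levels ran from 1.67% to 24.6% in 60M-GS, with a median of 5.52%, and from 2.2% to 29.6% in 5M-GS, with a median of 14.6%. The tile at chr5:119477001-119478000 was at 5.52% in 60M-GS cells and 21.8% in 5M-GS cells, and its neighbour at chr5:119478001-119479000 was at 5.33% in 60M-GS, against 14.6% in 5M-GS. Neighbouring on the same chromosome, Med13l, which encodes a subunit of the Mediator complex, had 9 tiles, all still low, at 1.26% to 27.9% in 60M-GS cells and 2.12% to 27.7% in 5M-GS cells. The region around these genes thus held no filled tile.

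Other genes with many still-low tiles were mixed in kind. Slc27a6, a fatty acid transport gene, and Cbln4, which encodes a secreted synaptic organiser, had 8 tiles each, and all were still low. Rbfox1, a splicing regulator gene, had 8 still-low tiles and 1 in the middle class. Vstm2b had 8 still-low and 3 middle tiles, and Prdm2, which encodes a zinc finger methyltransferase, had 7 still-low and 2 middle tiles. Dsel, which acts in dermatan sulfate synthesis, had 8 still-low, 6 middle and 4 filled tiles, so tiles of all 3 classes shared the same stretch of chromosome 1.

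Tiles near genes of undifferentiated spermatogonia were mostly still low, as were most members. In the gene lists, a tile counts as near its nearest protein-coding gene at any distance. Of 46 listed genes found, 20 were the nearest such gene of 30 tiles. Of these, 26 (86.7%) were still low, against 65.0% of all members, 3 were in the middle class and 1 had filled in. By Fisher's exact test, 1 of the 30 (3.33%) was called higher in 60M-GS, against 23.8% of all members and 3.48% of all tiles. Of all members with at least 600 CpGs 5 to 50 kb away 80.8% were still low. The part of the surroundings in the share of these 30 tiles was not tested. Gfra1, the GDNF co-receptor, had tiles at 3.42% and 24% in 60M-GS, against 17.2% and 19% in 5M-GS. Sall4, a zinc finger factor of stem cells, had tiles at 10.2% and 3.21% in 60M-GS cells and 19% and 5.88% in 5M-GS cells. Foxo1, a factor needed for spermatogonial stem cell maintenance, had tiles at 1.39% and 4.33% in 60M-GS, against 1.14% and 5.08% in 5M-GS. The filled tile lay 45702 bp from Cxcr4, a chemokine receptor gene, and was at 92.8% in 60M-GS cells and 27.5% in 5M-GS cells. The other 4 Cxcr4 tiles were at 13.4% to 27.2% in 60M-GS, against 12.2% to 26.6% in 5M-GS.

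Genes of pluripotency were nearest to 34 tiles, of which 26 (76.5%) were still low and 5 (14.7%) had filled in, against 65.0% and 10.3% of all members. Of the 34, 6 (17.6%) were called higher, against 23.8% of all members and 3.48% of all tiles. The 11 Tbx3 tiles are among the 26, so a large part of the still-low tiles comes from 1 gene. Nr5a2, a nuclear receptor gene, had filled tiles at 89.1% and 86.8% in 60M-GS cells and 15.2% and 26.2% in 5M-GS cells, beside 1 still-low and 1 middle tile. Both filled tiles passed the test on divided calls, as did 236 of all 496 filled tiles. Myc, a proto-oncogene, had filled tiles at 85.0% and 82.4% in 60M-GS, against 24.1% and 24.2% in 5M-GS, 295341 and 575640 bp away. The 3 tiles of Klf4, a reprogramming factor gene, stayed at 0.855% to 24.1% in 60M-GS cells and 0% to 17.4% in 5M-GS cells.

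Tiles near developmental regulators were mostly still low, as were most members, and some lay far from the gene. Those of Zeb2 lay 426559 to 982559 bp away and those of Sox11 lay 29283 to 544283 bp away. Of 80 tiles nearest to homeobox genes 63 were still low and 1 had filled in, and of 91 nearest to Fox, Sox, T-box, Gata, Zic and bHLH genes 70 were still low and 4 had filled in. The 70 include the same 11 Tbx3 tiles. Of 25 tiles near Wnt pathway genes 22 were still low, among them the 3 tiles of Ctnnb1, the gene for beta-catenin, at 5.59% to 12.7% in 60M-GS, against 10.7% to 25.1% in 5M-GS. The 2 tiles of Wnt5a, a Wnt ligand gene, were at 5.53% and 6.59% in 60M-GS cells and 12.4% and 4.58% in 5M-GS cells. A tile 10960 bp from Vangl2, a planar polarity gene, was a filled member of this list, at 71.6% in 60M-GS, against 14.4% in 5M-GS. Of 15 tiles near JNK pathway genes 13 were still low, including 6 of the 7 tiles of the kinase gene Map3k7.

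The remaining lists were small or of another kind. All 4 tiles near meiosis and piRNA genes were still low, among them those of Meiob at 5.95% and 1.9% in 60M-GS cells and 3.55% and 11.4% in 5M-GS cells. Of 9 tiles near genes of spermatogonial differentiation 6 were still low and 0 had filled in, and the tile of the receptor gene Kit was at 5.1% in 60M-GS, against 8.82% in 5M-GS. Of 11 tiles near Sertoli and Leydig cell genes 8 were still low and 2 had filled in. Receptor and adhesion families were counted in the same way. Of 48 tiles near vomeronasal receptor genes 10 were still low and 9 had filled in. Of the 48, 28 (58.3%) were called higher, against 23.8% of all members and 3.48% of all tiles. Their median 5M-GS level was 24.5%, against 19.9% over all members, and the part of this starting level in the share was not tested. Of 34 near olfactory receptor genes 20 were still low and 6 had filled in. Of 135 near protocadherin and cadherin genes 56 were still low and 34 had filled in, of which 14 were the Pcdh10 tiles. Against these counts, 65.0% of all members were still low and 10.3% had filled in.

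Promoters of the nearest genes were measured in windows from 250 bp before to 50 bp after the RefSeq start. Most were low in both cultures: of 209 windows of genes nearest to filled tiles, 167 were at 10% or less in 60M-GS cells and 176 in 5M-GS cells. Of these 209 windows 18 (8.61%) were called higher in 60M-GS, against 2.89% of 15521 windows of protein-coding genes and 4.43% of all 21422 windows. For windows called lower these shares were 0.567% and 0.864%, and 1 of the 209 was called lower. For genes within 50 kb of a filled tile 6 of 59 windows (10.2%) were called higher in 60M-GS. For genes within 50 kb of a still-low tile 25 of 1106 (2.26%) were called higher. The high tile level was thus shared by the promoter in few cases.

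The clearest case was Slc22a16, which encodes a carnitine transporter known from human testis. Its promoter window was at 89.3% (84.1% to 93.0%, 187 calls) in 60M-GS, against 2.56% (1.0% to 6.41%, 156 calls) in 5M-GS on 8 CpGs, with an adjusted p of 3.72e-66 by Fisher's exact test and 5.16e-07 on divided calls. The filled tile 41321 bp from the gene (chr10:40528001-40529000) was at 84.1% in 60M-GS cells and 7.95% in 5M-GS cells. Krtap11-1, a gene for a keratin-associated protein, had a promoter window at 87.7% in 60M-GS, against 23.0% in 5M-GS on 4 CpGs, with an adjusted p of 1.22e-25 and 2.47e-05 on divided calls. It had a filled tile at 90.2% in 60M-GS cells and 23.8% in 5M-GS cells, 26176 bp away, and a still-low tile at 3.68% in 60M-GS, against 4.72% in 5M-GS, 5818 bp away. The 2 promoter sequences, read from RefSeq on GRCm38.p6 (mm10), show how few CpGs carry these values, and the capitals mark the CpGs. The Slc22a16 window is chr10:40570112-40570411 on the plus strand and the Krtap11-1 window is chr16:89571134-89571433 on the minus strand.
Slc22a16 promoter: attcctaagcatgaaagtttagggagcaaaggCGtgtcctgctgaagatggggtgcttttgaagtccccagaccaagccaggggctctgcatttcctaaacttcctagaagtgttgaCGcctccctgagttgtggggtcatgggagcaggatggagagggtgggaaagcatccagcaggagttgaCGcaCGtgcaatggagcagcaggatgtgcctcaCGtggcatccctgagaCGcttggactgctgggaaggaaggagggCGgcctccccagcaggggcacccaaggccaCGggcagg
Krtap11-1 promoter: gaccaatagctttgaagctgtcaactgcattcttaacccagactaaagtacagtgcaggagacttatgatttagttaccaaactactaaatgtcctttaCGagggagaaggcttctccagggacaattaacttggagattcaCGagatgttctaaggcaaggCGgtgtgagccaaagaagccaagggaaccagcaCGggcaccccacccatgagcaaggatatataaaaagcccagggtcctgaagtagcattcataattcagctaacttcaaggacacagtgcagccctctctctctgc

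Other promoters within 50 kb of a filled tile that were called higher were those of Lhcgr, the luteinising hormone receptor of Leydig cells, Esp16 and Lrrtm4, which encodes a synaptic protein. The Lhcgr window was at 90.1% in 60M-GS cells and 40.2% in 5M-GS cells, and that of Esp16 at 85.2% in 60M-GS, against 20.3% in 5M-GS. Of these, Esp16 passed on divided calls, at an adjusted p of 0.0332, and the Lhcgr and Lrrtm4 windows did not. The promoter of Hrh1, a histamine receptor gene, went the other way, at 10.1% in 60M-GS cells and 55.3% in 5M-GS cells (adjusted p of 1.75e-12 by Fisher's exact test, 0.0538 on divided calls). Hrh1 was nearest to 8 members. The closest, 8703 and 10703 bp away, were middle tiles at 62.4% and 54.1% in 60M-GS, against 24.5% and 25% in 5M-GS. Its 2 filled tiles, 45703 and 47703 bp away, were at 88.2% and 92.0% in 60M-GS cells and 26.7% and 18.5% in 5M-GS cells. Still-low tiles lay 54703 and 57703 bp away, at 19.3% and 24% in 60M-GS, against 12.7% and 9.15% in 5M-GS. All 8 members had the higher level in 60M-GS and the promoter had the lower one. The members were selected on a low 5M-GS level and the promoter was picked after its value was seen. Nothing is therefore read from this contrast.

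Set against other low tiles on the autosomes, the distal CpG-poor tiles stood between 2 kinds. Of 8951 CpG-poor tiles at 30% or less in 5M-GS that lay inside or within 5 kb of a gene, 360 (4.02%) were at 70% or more in 60M-GS. Of 13160 distal tiles with at least 10 CpGs, 1959 (14.9%) were. In the same order of kinds, the mirrored rule gave 28 of 8683 tiles and 37 of 9642 tiles at 70% or more in 5M-GS. These shares depend on the spread of 5M-GS levels under 30%. Among tiles at 20% to 30% in 5M-GS, 15.9% of the distal CpG-poor, 5.92% of the gene-near and 29.8% of the CpG-richer distal tiles had filled in, so the order was the same.

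The limit of 30% cut through a continuous range. The 4 members nearest to it were at 28.6%, 32.3%, 43.5% and 63.3% in 60M-GS, and all 4 were at 30% in 5M-GS. The 4 tiles just outside were at 13.7%, 20.3%, 30.2% and 64.4% in 60M-GS, against 30.04% to 30.05% in 5M-GS. Of 1296 members at 25% to 30% in 5M-GS, 18.5% had filled in, and of 1747 tiles at 30% to 35% that were not members, 23.0% were at 70% or more in 60M-GS.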

How the data were processed

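The labels' protocols give post-bisulfite adaptor tagging (PBAT) as the library method for whole-genome bisulfite sequencing. The submitters' processing notes name Bismark 0.10.0 and the build mm10. Each of the 2 deposited tables holds, per CpG, a count of methylated and a count of unmethylated calls, and the percent of methylated calls, which the authors derived from both. The percent column was used here only as a check, and it matched the counts in every row. Each table pools the 2 replicates of its group. How reads were filtered or deduplicated is not stated in the labels. The cells are of DBA/2 background and the build is that of C57BL/6, so a CpG lost to a strain difference would read as 0 in both tables, and its part in the levels was tested only by leaving such CpGs out. A total of 17634196 CpGs had 5 or more calls in each table. Of these, 139411 (0.791%) were at 0 in both between neighbours at 70% or more in both, and 198 of the 31060 CpGs of the members (0.637%) were.

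From the counts, levels were summed over each 1 kb tile. Levels have Wilson intervals and differences Newcombe intervals. Fisher's exact test (numba 0.67.0, checked on simulated data) with Benjamini-Hochberg adjustment ran over all tiles, and in a fit of its own over 21422 promoter windows of 300 bp with at least 4 CpGs. Gene positions and promoter sequences came from RefSeq on GRCm38.p6, which held 49554 genes on these chromosomes, 21631 of them protein-coding. The genome sequence was not used here, so no tile sequence is printed and no motif was searched. Python 3.11.15, numpy 2.4.6 and pandas 2.3.3 were used.

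The members, gene lists and tests were chosen with earlier results of these data known. The windows of 1 Mb, the limit of 60% for surroundings, the range of 40% to 80%, the low stretch at 50% and the promoter comparison were chosen after values had been seen. Tiles were named by rule: the 12 filled tiles with the largest difference, the 8 still-low tiles with the lowest upper bound, the 4 nearest to the limit on each side, and the longest runs. Genes named were the 8 nearest to most filled and to most still-low tiles and up to 4 per list. The tiles called lower, Vangl2, Kit, Mycn and the promoters were chosen after their values had been seen.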

Additional observations from a re-analysis of the deposited data

How the results depend on the processing

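No paired analysis was possible because each table pools the 2 replicates of its group, and for the same reason no replicate could be left out. Main values were 4827 members, 3139 still low, 496 filled in, 1151 called higher and 4238 tiles of the mirrored rule. Of 19 alternatives, 17 gave both shares. Over these the filled share ran from 4.78% to 14.9% and the mirrored share from 0.081% to 1.2%, and the filled share was the larger in each of the 17. A minimum of 120 calls per tile gave 2814 members, 1973 still low, 254 filled in, 591 called higher and 2646 mirrored tiles. A limit of 20% gave 2450 members, 1976 still low, 117 filled in, 410 called higher and 2469 mirrored tiles. Without chromosomes 1, 4, 15, 16 and 17, parts of which were listed for a difference in depth in an earlier analysis of these data, 305 had filled in and 753 were called higher. The scaled ratio of calls, 60M-GS over 5M-GS, was 0.83 on chromosome 15 and 0.91 on chromosome 16. It was 1.03, 1.02 and 0.99 on chromosomes 1, 4 and 17. The filled tiles named for Myc lie on chromosome 15 and those for Epha6, Krtap21-1 and Krtap11-1 on chromosome 16. The part of this depth in their levels was not tested. Calls divided by CpGs gave 262 called higher, a minimum difference of 40 points gave 674, and a limit of 80% gave 284 filled in. For the divided calls the share over all tiles was 0.498%. It was not computed for the other alternatives, so nothing is read from their counts called higher. The filled share was 9.03% with 120 calls, 4.78% with the limit of 20% and 8.86% without the 5 chromosomes, against 10.3%. The limit of 20% leaves out the tiles at 20% to 30% in 5M-GS, of which 15.9% had filled in. For the minimum of 120 calls and the chromosomes left out, the cause of the lower share was not tested. Alternatives chosen after seeing the data left out surroundings under 60%, the chromosome 17 domain, or isolated CpGs at 0 in both tables, and moved none of these counts by over 1.5 times. Without the isolated CpGs 4703 members remained, with 3050 still low and 498 filled in. Depth limits single tiles: the lower bound was at 70% or more in 315 of the 496 filled tiles, and the 60M-GS upper bound was at 30% or less in 2436 of the 3139 still-low tiles.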

Other observations

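On chromosome X, which the rule left out, 214 distal CpG-poor tiles were at 30% or less in 5M-GS. Of these, 65 (30.4%) were at 70% or more in 60M-GS and 94 were at 30% or less. The mirrored rule took 129 such tiles, of which 3 (2.33%) were at 70% or more in 5M-GS. Among tiles at 20% to 30% in 5M-GS the filled share was 51.4% of 109 on chromosome X, against 15.9% of 2377 on the autosomes. Over all distal CpG-poor tiles of chromosome X the share at 70% or more was 92.2% in 60M-GS, against 77.2% in 5M-GS.

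A few members had depths far from the rest. There were 9 members with over 100 calls per CpG, of which 1 had filled in. It lay near the start of chromosome 9 (chr9:3015001-3016000) and was at 74.3% on 19062 calls in 60M-GS and 24.1% on 22644 calls in 5M-GS. A still-low tile on chromosome 16 (chr16:98107001-98108000) was at 25.3% on 95 calls in 60M-GS and 6.52% on 1257 calls in 5M-GS.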
